A study of Gallus gallus with 6 samples.

Results

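The germinal disc region of the largest preovulatory follicle (F1 GDR) was compared with the germinal disc region of the ovulated oocyte (Ov GDR) in the laying hen. The 4 arrays of these groups, 2 each, were chosen by their sample titles out of 6 Affymetrix chicken arrays. All probe sets other than the Affymetrix controls were compared, which was 38439 of 38535. The remaining 2 arrays carried RNA of granulosa cells of F1 follicles (F1 GCs), taken close to the germinal disc, and entered the model only to estimate the spread. All tissue came from untreated adult ISA Brown hens of an egg-laying breed, past their first year, and each array carried tissue pooled from a group of hens. The values are those that gcrma gives, on a log2 scale, so that a difference of 1 is a doubling. Genes said to rise or fall were higher or lower in F1 GDR than in Ov GDR. These words do not follow time, since the F1 stage comes before ovulation. In every sentence that gives values array by array, the array without a suffix in its title comes before the array titled A.

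The germinal disc is the small white spot on top of the yolk that holds the oocyte nucleus and most of its cytoplasm, and it is the place from which the embryo forms. In the follicle it lies against the egg coat, the perivitelline layer, and a sheet of granulosa cells. Granulosa cells of the F1 follicle respond to luteinizing hormone, make progesterone from cholesterol and secrete a component of the egg coat. At ovulation the oocyte leaves the granulosa layer behind in the ovary. As the study describes its sampling, the disc could not be separated fully from the granulosa cells over it, so that F1 GDR held some of them and Ov GDR none. In tissue such as this, fewer cells of a type and less RNA per cell cannot be told apart.

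The arrays differed in quality, and the Ov GDR array without a suffix stood apart. Background was set at the brightest of 23 controls whose sequences do not occur in the hen. It was 3.27 and 3.01 in Ov GDR and 2.82 and 2.88 in F1 GDR. In all, 36.6% and 44.0% of probe sets were above it in Ov GDR, against 48.9% and 46.9% in F1 GDR. For actin, the control probe set at the 3′ end exceeded that at the 5′ end by a log2 of 5.02 and 1.53 in Ov GDR. The same gap was 2.65 and 3.57 in F1 GDR and 3.23 and 2.46 for the granulosa cells. The first Ov GDR array therefore had the steepest 3′ to 5′ fall for actin and the second Ov GDR array the shallowest. The GAPDH probe sets placed the same 2 arrays at the ends, with a log2 of 2.82 and 0.11. For EF1-alpha the first was again the steepest, at 4.51, but the second, at 1.48, lay above the F1 GCs arrays at 1.31 and 1.09. The difference between both arrays of a group had an SD of 0.82 over all probe sets in Ov GDR, 0.43 in F1 GDR and 0.30 for the granulosa cells. The study also describes the ribosomal RNA of ovulated germinal disc regions as degraded. From labelled reverse transcription and its array comparison, however, it reports the messenger RNA there as nearly intact. The part of RNA quality in the differences below was not tested, and values without each array are given beside the counts.

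**Figure D1:**
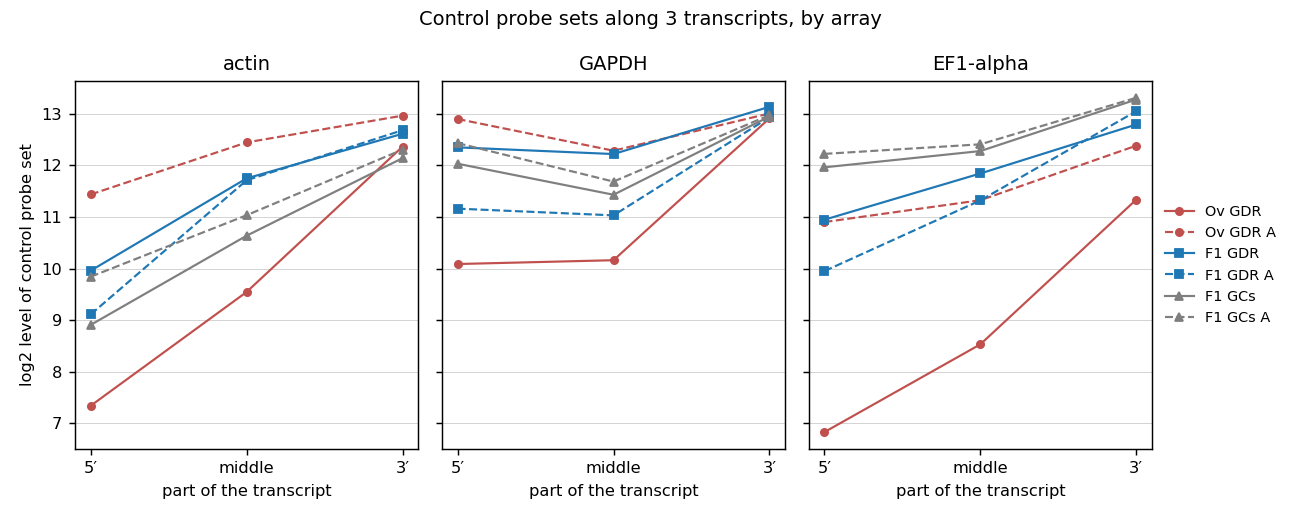
Log2 level (y axis) of the control probe sets at the 5′ end, the middle and the 3′ end (x axis) of the actin, GAPDH and EF1-alpha transcripts, with 1 line per array and dashed lines for the arrays titled A. The Ov GDR array without a suffix has the steepest line in each panel (for actin a log2 of 5.02 between the ends), and its partner a much flatter one (1.53).

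More probe sets were called higher than lower in F1 GDR. A total of 625 probe sets, 1.63% of those tested, were higher in F1 GDR and 90, or 0.234%, were lower (limma, Benjamini-Hochberg adjusted p under 0.05). The higher ones carried 447 gene symbols and differed by a median log2 of 2.99, with a largest value of 9.23. The lower ones carried 64 symbols and differed by a median log2 of -0.37, with a largest fall of 3.21. Of the 625, 211 were at background on both Ov GDR arrays, and 8 were at background on all 4 arrays. Of the 90, 52 were at background on all 4 arrays, so that only 26 of them fell by a log2 of 1 or more, against 604 of the 625 that rose by that much. Over all probe sets the median difference was -0.05.

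These counts depended on single arrays. There were 1385 higher and 2349 lower probe sets without the first Ov GDR array, and 2152 and 4390 without the second. Without the first F1 GDR array 16 were higher and 0 lower, and without the second 6 and 0. Leaving out either of the F1 GCs arrays keeps the difference between the other groups the same and changes only the pooled spread and its degrees of freedom. That spread then comes from Ov GDR and F1 GDR, without F1 GCs. The arrays of F1 GCs differed least, with an SD of 0.30 against 0.82 in Ov GDR and 0.43 in F1 GDR. Of the 89 called probe sets named by rule in the text, 88 were no longer called without either of the F1 GDR arrays, and SMAD2 was the one that stayed. None of the 89 was called without either of the F1 GCs arrays, whereas DIAPH3 was the only one not called without the first Ov GDR array and all were called without the second. With a fit of only the 4 arrays compared, 0 probe sets were called, and with 2 arrays against 2 an exact permutation test of 1 probe set has a smallest p of 0.333. The p-values of the main fit rest on a spread pooled over all groups, which takes their variance as equal. Over all probe sets, the Ov GDR pair alone, with its SD of 0.82, would give a larger spread than this pool. Both Ov GDR arrays also differed in their 3′ to 5′ fall for actin, with a log2 of 5.02 and 1.53. How much of the spread came from hens and how much from RNA quality was not tested.

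**Figure D2:**
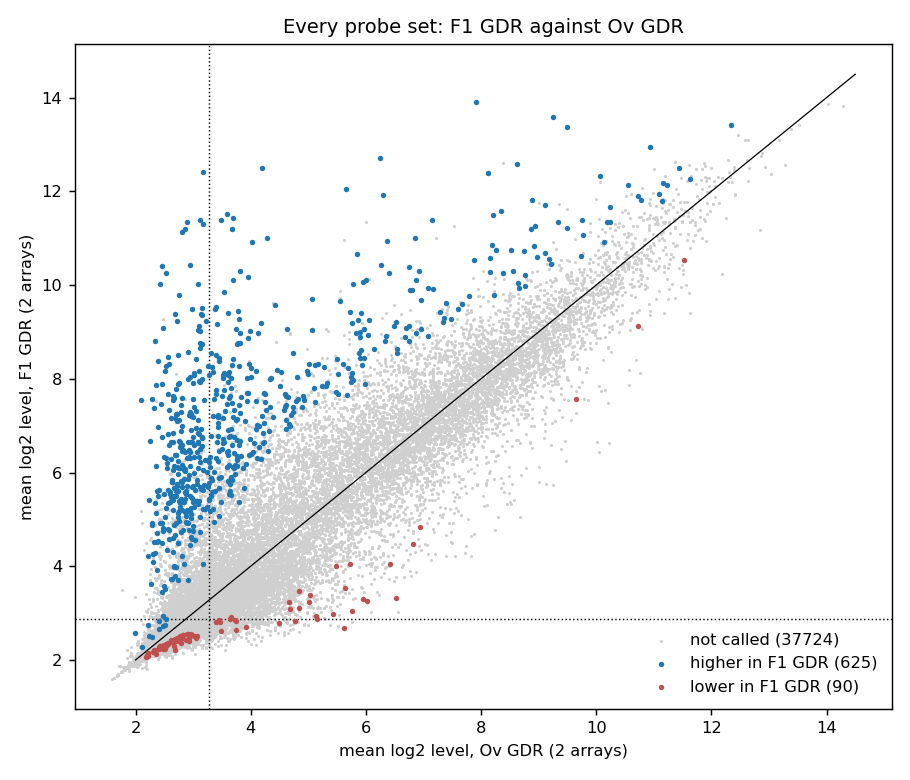
Mean log2 level in F1 GDR (y axis, 2 arrays) against that in Ov GDR (x axis, 2 arrays), with 1 point per probe set, blue where called higher and red where called lower. Dotted lines mark the higher background of each group; many of the 625 higher probe sets stand at the left edge, at or near background in Ov GDR, and most of the 90 lower ones sit in the lower left corner.

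A simple separation of the same arrays, chosen after the data were seen, also gave more probe sets higher than lower, without any estimate of the spread. Both F1 GDR arrays were above both Ov GDR arrays by a log2 of 1 or more for 1543 probe sets (4.01%), and below them by as much for 249 (0.648%). With a gap of 2 or more the counts were 602 (1.57%) and 22 (0.0572%), and with a gap of 3 or more 263 (0.684%) and 0. Of the 625 called higher, 596 had the gap of at least 1, and of the 90 called lower, 25 had it. Such a gap asks for a large difference. At an unadjusted p under 0.05 (limma), by contrast, fewer probe sets were higher than lower, 2896 against 4303. With 1 probe set per gene, the brightest of each, 397 of 13009 genes were higher (3.05%) and 26 lower (0.2%), with a median of -0.04. A positive difference was present in 5372 of the 13009. The gap of at least 1 was present upwards in 952 genes (7.32%) and downwards in 133 (1.02%). Shares of the gene lists below stand against these values.

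The probe set with the largest difference belonged to an egg coat gene. It is annotated as UMOD, and the study calls the same probe set zona pellucida protein D, a component of the perivitelline layer. It read 3.43 and 2.92 in Ov GDR and 12.62 and 12.20 in F1 GDR, a log2 difference of 9.23 ± 0.26 (SE) or 602-fold (adjusted p = 0.00467). In F1 GCs it read 12.89 and 13.06. Both Ov GDR arrays were thus near background and both F1 GDR arrays just below those of the granulosa cells.

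ZP3, which encodes zona pellucida protein C and is made by granulosa cells in birds, read 8.25 and 7.56 in Ov GDR and 13.96 and 13.87 in F1 GDR. It rose by 6.01 ± 0.23 (adjusted p = 0.00593), 64.4-fold, and reached 13.99 on both F1 GCs arrays. Unlike UMOD, it was well above background in Ov GDR. ZP2, the gene of zona pellucida protein A and one that oocytes transcribe, read 7.07 and 6.57 in Ov GDR, 6.99 and 7.08 in F1 GDR, and 3.85 and 2.96 in F1 GCs. Its difference of 0.22 had a 95% interval of -0.88 to 1.31, and its arrays overlapped. Of 7 egg coat genes measured, these were 2 called higher and 0 lower, with a median of 0.22. ZP1 and ZP4 were at background on all 4 arrays of the comparison.

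The enzymes that make progesterone were among the leading genes. CYP11A1, the mitochondrial enzyme that turns cholesterol into pregnenolone, read 2.71 and 3.18 in Ov GDR and 10.73 and 10.13 in F1 GDR, a rise of 7.49 ± 0.31 (180-fold, adjusted p = 0.00666). HSD3B1, which converts pregnenolone to progesterone, read 3.91 and 3.46 against 11.71 and 11.13, a rise of 7.73 ± 0.28 (213-fold, adjusted p = 0.00593). A second HSD3B1 probe set, at background in Ov GDR, rose by at least 253-fold. FDX1B, which the study lists as similar to an adrenodoxin homolog, rose by 8.33 ± 0.22 from 2.69 and 3.02 to 11.31 and 11.06 (322-fold, adjusted p = 0.00467). The groups were far apart for each of these enzymes, with the F1 GCs arrays above F1 GDR, between 11.94 and 12.72.

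NR5A1, a nuclear receptor that switches on steroidogenic genes, rose by 3.71 ± 0.26, from 5.50 and 5.94 to 9.28 and 9.58 (adjusted p = 0.0142). STAR, which carries cholesterol into mitochondria, read 3.73 and 2.59 in Ov GDR, 7.17 and 5.80 in F1 GDR, and 9.49 and 10.04 in F1 GCs. Its groups did not overlap, but both arrays of each germinal disc group differed by more than a log2 of 1, and it was not called (adjusted p = 0.11). NR5A2 and STARD4 were likewise apart by a gap of at least 1 and not called (adjusted p = 0.0793 and 0.0562). In all, 4 of 13 measured genes of progesterone synthesis were higher and 0 lower, with a median of 2.26, and 7 showed the gap. The ferredoxin FDX1, its reductase FDXR, POR, CYB5A and TSPO had differences between -0.32 and 0.15, so the list did not move as a whole. Of 13 genes of androgen, estrogen and steroid reduction, 0 were called and the median was -0.06. CYP17A1 and CYP19A1, which make androgens and estrogens and mark the theca in the hen, were at background on all 4 arrays.

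Receptors for the hormones of ovulation included a pair of genes that were higher. LHCGR, the receptor of luteinizing hormone, read 6.53 and 6.19 in Ov GDR, 11.02 and 10.85 in F1 GDR and 11.73 on both F1 GCs arrays. It rose by 4.57 ± 0.17 (23.8-fold, adjusted p = 0.00593). PGRMC1, a membrane component that binds progesterone, was at background in Ov GDR, at 2.53 and 2.51, and read 10.21 and 10.30 in F1 GDR, at least 139-fold higher (adjusted p = 0.00467). A second PGRMC1 probe set rose by 5.28. FSHR, the receptor of follicle-stimulating hormone, read 7.93 and 7.75 against 7.36 and 7.55, a difference of -0.38 that was not called. The nuclear progesterone receptor PGR was at background on all 4 arrays. Of 25 receptors, 2 were higher and 0 lower, with a median of -0.14. The retinoic acid receptor RARB alone was apart downwards, at 6.71 and 6.19 against 4.40 and 4.42, with an adjusted p of 0.0525 that did not pass.

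Inhibins, activins and bone morphogenetic proteins (BMPs) are ligands that signal through SMAD proteins in granulosa cells and oocytes, and ID proteins are targets that block differentiation factors. INHA, the inhibin subunit that defines granulosa cells, read 2.40 and 2.63 in Ov GDR and 8.66 and 7.65 in F1 GDR, at least 32.3-fold higher (adjusted p = 0.0164), and 10.56 and 10.74 in F1 GCs. Another probe set of INHA read 2.72 and 2.59 in Ov GDR and, far apart, 6.53 and 3.40 in F1 GDR. It was not called (adjusted p = 0.311). ID2 read 3.16 and 2.63 against 11.25 and 11.43, at least 293-fold higher (adjusted p = 0.00572), and a second probe set of ID2 rose by 4.04. Others of ID2 differed by 0.58 and 0.44 and were not called. SMAD2, which carries the signal of activin, rose by 6.48 ± 0.13, from 6.14 and 6.33 to 12.85 and 12.59 (89.5-fold, adjusted p = 0.0028). ID2 was the exception among these on its brightest probe set alone, where F1 GDR was above the F1 GCs level of 10.76 and 10.98. The second probe set overlapped, at 7.19 and 6.11 in F1 GDR and 6.59 and 7.22 in F1 GCs. Another was lower in F1 GDR, at 3.69 and 4.13 against 5.59 and 5.46 in F1 GCs.

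SMAD3, a relative of SMAD2, rose by 2.48 and ID4 by 2.51. INHBA, the activin subunit, and ID1 had the gap of at least 1 without being called, at 8.37 and 6.87 in F1 GDR for INHBA and 9.68 and 9.48 for ID1. The ligand BMP2 was apart in the other direction and was not called (adjusted p = 0.0987). It read 8.71 and 8.69 in Ov GDR, 6.62 and 5.29 in F1 GDR, and 3.78 and 3.41 in F1 GCs. Of 37 genes in this list, 5 were higher and 0 lower, with a median of -0.07, and 7 had the gap upwards and 2 downwards.

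**Figure D3:**
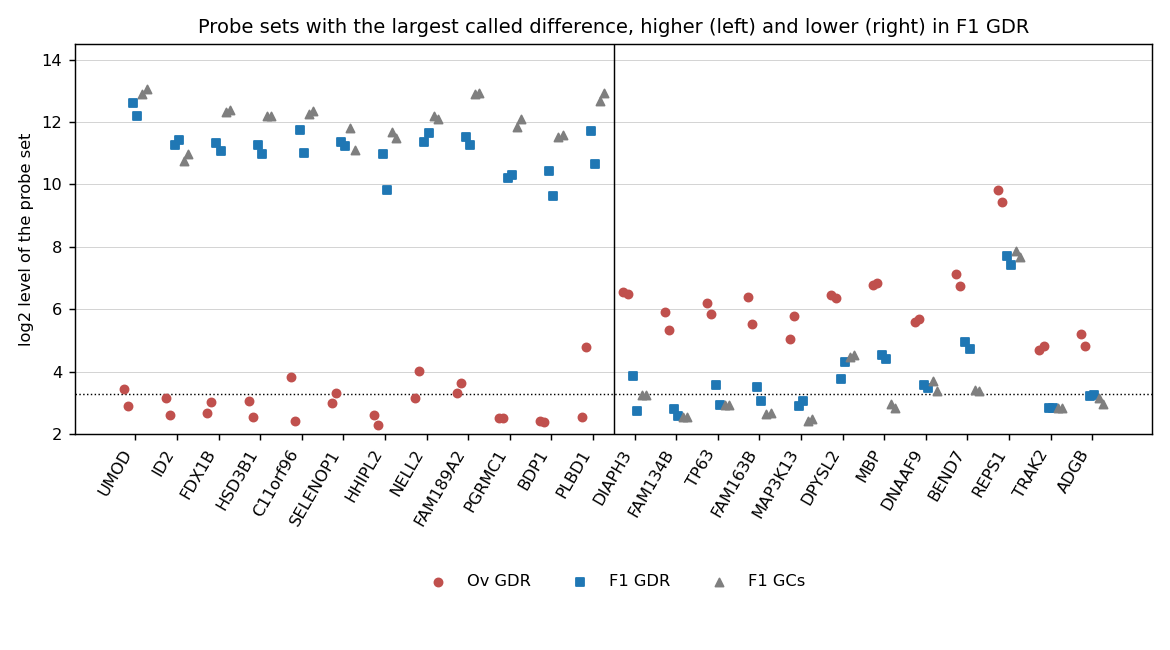
Log2 level (y axis) on each array of the 12 genes with the largest called rise (left) and the 12 with the largest called fall (right) in F1 GDR, with 2 points per group; the dotted line is the highest background of the 6 arrays. The genes on the left run from near background in Ov GDR to between 9.63 and 12.62 in F1 GDR, whereas those on the right start at 9.83 or less in Ov GDR and mostly end near background in F1 GDR.

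Other leading genes covered secreted, membrane and signalling proteins. SELENOP1, a selenium carrier, rose by 8.14 ± 0.31 from 3.01 and 3.32 to 11.38 and 11.23 (adjusted p = 0.00593), and another of its probe sets rose by 6.20. Its 5 further probe sets were not called and differed by between -0.41 and 2.48. C11orf96 rose by 8.26 ± 0.54 (adjusted p = 0.0128), from 3.82 and 2.42 to 11.76 and 11.02. HHIPL2 was at least 154-fold higher (adjusted p = 0.0107). FAM189A2 rose by 7.91 (adjusted p = 0.00467). These 3 genes stood near background in Ov GDR. BDP1, whose product helps RNA polymerase III start transcription, was at least 118-fold higher on 1 probe set (adjusted p = 0.0069), but its other probe sets differed by 0.42 and 0.26 and were not called. PLBD1 rose by 7.51 ± 0.82, and its Ov GDR arrays were themselves far apart, at 2.57 and 4.79. Other probe sets of PLBD1 differed by -0.01 and 1.71, of C11orf96 by 0.70 and of FAM189A2 by 3.08, and none was called. SLC16A10, a carrier of aromatic amino acids, was at least 101-fold higher, with 3 more of its probe sets called higher. Others of SLC16A10 differed by 0.48 and -0.05 and were not called.

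Signalling genes among the 25 leading ones were RASD1, a small GTPase of the Ras family, PIK3R1, the regulatory subunit of phosphoinositide 3-kinase, and SGK1, a kinase downstream of it. RASD1 read 2.43 and 2.93 in Ov GDR and 9.42 and 9.33 in F1 GDR, at least 75.3-fold higher (adjusted p = 0.00666). PIK3R1 rose by 6.03 ± 0.26 and SGK1 by 6.25 ± 0.29 (adjusted p = 0.00666 and 0.00723). For all 3 both Ov GDR arrays were near or at background. LRRN4 and the RNA-binding protein RBM3 were at background in Ov GDR and at least 68.3-fold and 50.5-fold higher. A brighter probe set of RBM3, however, read 9.77 and 9.98 against 10.57 and 10.39 and was not called. INF2, a formin that shapes actin filaments, rose by 6.12 ± 0.48. Other probe sets of INF2 differed by between -0.06 and 0.16, of RASD1 by 3.05 and of SGK1 by 1.83, and none was called. A further probe set of PIK3R1 rose by 4.96, whereas its others differed by -0.44 and -0.18 and were not called.

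Granulosa markers did not all differ. Of 12 granulosa markers, INHA, CYP11A1, HSD3B1 and LHCGR were higher and 0 were lower, with a median of 1.71. The log2 of their summed level was 12.19 and 11.98 in Ov GDR, 13.47 and 13.01 in F1 GDR, and 14.34 and 14.39 in F1 GCs. In Ov GDR, INHA, NR5A2 and the ligand KITLG were at background on both arrays. FOXL2 read 12.02 and 11.71 in Ov GDR and 11.59 and 11.24 in F1 GDR, with a mean of 10.93 in F1 GCs. FOXL2, a transcription factor that granulosa cells use, was therefore bright on all 6 arrays, with a difference of -0.45 that was not called here. FST, the activin antagonist follistatin, had means of 6.36, 6.30 and 3.07 in Ov GDR, F1 GDR and F1 GCs on its brightest probe set. Another of its probe sets read 7.22 and 7.18 against 5.65 and 5.18 and was not called (adjusted p = 0.077). The share of granulosa RNA in the differences of this comparison was not tested.

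**Figure D4:**
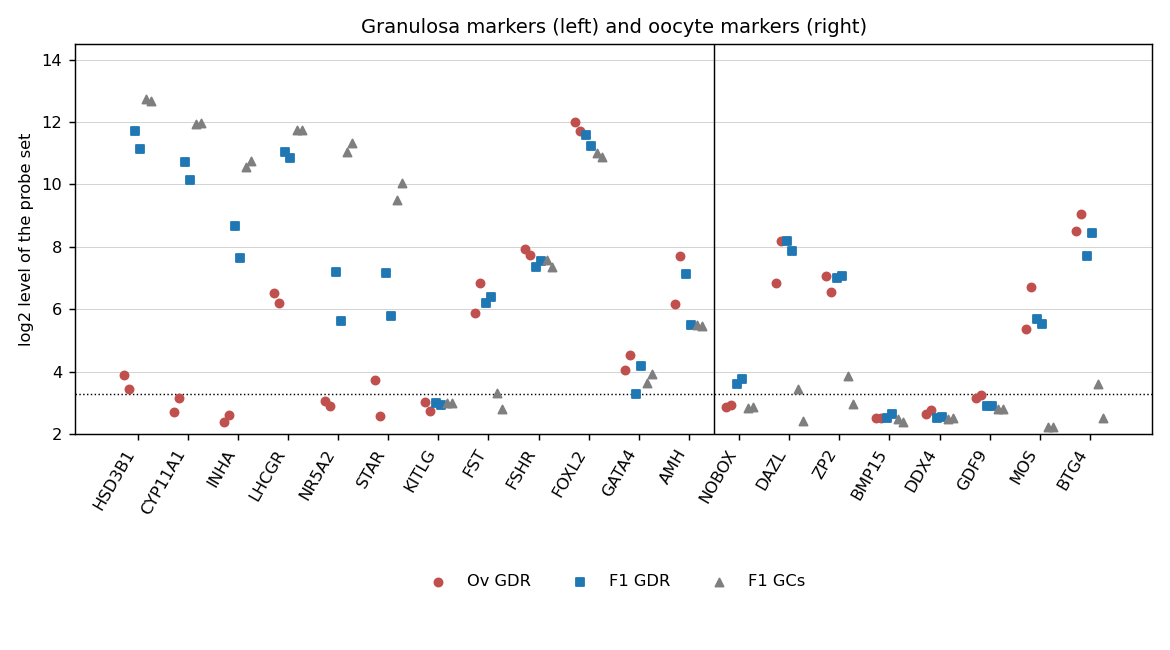
Log2 level (y axis) on each array of the 12 granulosa markers (left) and 8 oocyte markers (right), with 2 points per group; the dotted line is the highest background of the 6 arrays. HSD3B1, CYP11A1 and INHA separate F1 GDR from Ov GDR, FOXL2 is high everywhere, and BTG4, MOS, ZP2 and DAZL overlap or nearly overlap between both germinal disc regions and stand above F1 GCs.

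Few markers of other cell types were called. Of 14 theca and stroma markers 0 were called, 9 were at background on all 4 arrays, and the log2 of their summed level was 7.12 and 6.85 in Ov GDR and 7.13 and 7.75 in F1 GDR. COL1A2, a collagen chain of connective tissue, was the one apart, at 2.91 and 2.32 against 5.31 and 6.63 (adjusted p = 0.0646). Of 12 blood and endothelial markers 0 were called, and the summed level was 6.64 and 6.75 against 6.38 and 7.11. Of these, the globin genes HBA1 and HBAD were above background only on the second F1 GDR array, at 5.76 and 3.67. Of 14 immune markers CD74 alone was called. CD74, the invariant chain that guides class II antigen presentation, was at least 37.9-fold higher (adjusted p = 0.0115), at 2.45 and 2.33 in Ov GDR, 8.61 and 8.17 in F1 GDR, and 9.89 and 9.21 in F1 GCs. Other probe sets of CD74 differed by 3.36 and 3.99 and were not called. The summed level of the list was 6.63 and 7.83 against 9.02 and 8.63. The leukocyte markers PTPRC, CD3E, CD3D and LCP1 were at background on all 4 arrays. Of 13 epithelial and oviduct markers 0 were called and 9 were at background on all 4 arrays, among them the egg-white genes OVAL, OVALX and LYZ. The surface protein EPCAM made up most of their summed level, at 12.01 and 12.82 in Ov GDR and 11.60 and 12.27 in F1 GDR. The log2 of that sum was 12.13 and 12.86 in Ov GDR, 11.75 and 12.36 in F1 GDR, and lower, at 9.86 and 9.49, in F1 GCs. The part of other cell types in the differences was not tested.

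The oocyte genes BTG4, MOS and DAZL were not called between the germinal disc regions before and after ovulation. BTG4, a factor that helps clear maternal mRNA in the mouse, read 8.52 and 9.05 in Ov GDR, 7.71 and 8.46 in F1 GDR, and 3.61 and 2.53 in F1 GCs, with a difference of -0.70 (95% interval -2.09 to 0.69). MOS, the kinase that arrests vertebrate eggs in meiosis, read 5.36 and 6.70 against 5.68 and 5.54, a difference of -0.42 (-1.68 to 0.84). DAZL, a germ cell RNA-binding protein, read 6.86 and 8.19 against 8.19 and 7.86, a difference of 0.50 (-1.12 to 2.12). The groups overlapped for MOS and DAZL and nearly met for BTG4, and the intervals allow differences of 2-fold or more in at least 1 direction.

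The gene annotated LOC424577, which the study followed as an oocyte gene, read 8.80 and 7.57 in Ov GDR and 6.83 and 7.82 in F1 GDR. Its difference was -0.86 (-2.37 to 0.66), and F1 GCs were at 3.24 and 3.13. MSH4, of meiotic recombination, differed by -0.57 (-1.14 to 0.00), TCF20 by -0.28, MARK3 by 0.12 and DLG5 by -0.35. DDX4, the germ cell helicase known as vasa, was at background on all 6 arrays, and so was the oocyte growth factor BMP15, while GDF9 reached 3.15 and 3.27 in Ov GDR, about the level of background. All 3 define oocytes or germ cells, and none gave a level on which the groups could be compared. The log2 of the summed level of 8 oocyte markers was 9.43 and 10.04 in Ov GDR, 9.47 and 9.64 in F1 GDR, and 6.09 and 5.61 for the granulosa cells, with NOBOX as the one called.

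Of 46 genes of the oocyte and germ line 3 were higher and 0 lower, with a median of -0.14 and 12 positive differences. WEE1, a kinase that holds back entry into mitosis, was at least 12.8-fold higher (adjusted p = 0.0115), at 2.61 and 2.51 in Ov GDR and 6.79 and 6.86 in F1 GDR. It read 8.65 and 8.61 in F1 GCs, above its level in either germinal disc region. TDRD5, of the small RNA machinery of germ cells, was at least 2.7-fold higher, at 4.68 and 4.47 in F1 GDR against 2.66 and 2.67 in F1 GCs. NOBOX, an oocyte transcription factor, was at least 1.47-fold higher, at 3.61 and 3.78, against 2.89 and 2.93 in Ov GDR and 2.83 and 2.87 in F1 GCs.

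Some genes stood above both other groups in F1 GDR. CLDN11, which seals tight junctions, read 3.59 and 3.28 in Ov GDR, 7.32 and 7.05 in F1 GDR and 3.22 and 2.97 in F1 GCs, a rise of 3.75 ± 0.24 over Ov GDR (adjusted p = 0.0121). ID4 read 4.05 and 3.63, then 6.35 and 6.34, with a mean of 4.11 in F1 GCs. NID1, a basement membrane linker, read 3.96 and 4.05, then 8.21 and 8.25, with a mean of 6.37 in F1 GCs, a rise of 4.22 ± 0.26 (adjusted p = 0.0115). On these probe sets the F1 GDR arrays did not overlap with those of either other group. Another probe set of CLDN11 differed by 1.76 and others of NID1 by -0.03, -0.14 and -0.02, and none was called.

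Further genes of this form were singled out after their values were seen. RELN, an extracellular guidance protein, read 4.21 and 3.30 in Ov GDR, 7.31 and 6.95 in F1 GDR, and 3.96 and 3.28 in F1 GCs (adjusted p = 0.0458 against Ov GDR). CLU, a secreted chaperone, read 4.78 and 4.68, then 8.87 and 8.24, then 6.03 and 6.32 (adjusted p = 0.0214). BYSL, DDX21, GTPBP4 and UTP4, each known for a part in ribosome assembly, rose by 2.53, 3.14, 2.41 and 2.22 over Ov GDR (adjusted p from 0.0299 to 0.0468). They were picked one by one, and how many genes of that role were measured was not counted. For GTPBP4, the brightest of them, the levels were 8.56 and 7.77 in Ov GDR, 10.64 and 10.51 in F1 GDR, and 9.05 and 8.80 in F1 GCs.

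Genes that answer to luteinizing hormone in ovarian follicles moved in part. CREM, a transcription factor of the cyclic AMP pathway, read 3.61 and 3.92 in Ov GDR and 6.51 and 6.88 in F1 GDR, a rise of 2.93 ± 0.32 (adjusted p = 0.0337). HIF1A, a transcription factor of low oxygen, was at least 7.89-fold higher (adjusted p = 0.0208). Other probe sets of CREM differed by 0.75 and 0.01 and of HIF1A by 0.90, and none was called. DUSP6, a phosphatase that switches off MAP kinases, rose by 1.78 ± 0.17 (adjusted p = 0.0238) and was again above F1 GCs, at 5.69 and 5.63 against 2.88 and 3.01. EGR1, an early response gene, was apart but not called, with means of 3.71 and 7.33 (adjusted p = 0.0869). Of 31 genes in the list 3 were higher and 0 lower, with a median of 0.03. FOS, HAS2, TNFAIP6 and PTGES, which respond in mammalian follicles, were at background on all 4 arrays, and PTGS2 read 7.38 and 5.93 against 7.37 and 7.01.

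The extracellular matrix list held several of the largest differences. NELL2, a secreted glycoprotein, rose by 7.92 ± 0.34 from 3.16 and 4.02 to 11.37 and 11.65 (adjusted p = 0.00666). FN1, fibronectin, rose by 6.73 ± 0.36 on its brightest probe set (adjusted p = 0.00945) and by 6.88 on another, although 6 further probe sets were not called. SPARC, a collagen-binding protein, rose by 4.27 ± 0.13, from a mean of 8.12 to 12.25 and 12.52 (adjusted p = 0.00572). Other probe sets of SPARC differed by 5.35 and 5.34 and were not called. ITGA2, VCAN and SDC2 also rose, by 3.80, 3.21 and 1.87. Together with NID1 these made 7 of 57 genes higher and 0 lower, with a median of 0.00, and 21 of the 57 were at background on all 4 arrays. COL4A4, a basement membrane collagen, was among the 25 leading genes with a rise of 6.32 ± 0.51 (adjusted p = 0.0187).

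Lysosomal proteases were among the called genes of the protease list. CTSA, cathepsin A, rose by 6.39 ± 0.26, from 5.89 and 5.43 to 12.33 and 11.77 (adjusted p = 0.00634). LGMN, a protease that processes cathepsins, rose by 4.92, CST3, a cathepsin inhibitor, by 4.25, and CTSC by 3.63. MMP10, a secreted metalloproteinase, rose by 2.82 and read 6.02 and 6.49 in F1 GDR. These were 5 of 43 genes higher and 0 lower, with a median of -0.03, and 11 genes had the gap of at least 1. CTSD and CTSH were among those apart and not called, with differences of 1.93 and 2.66. In the list of cell junctions PKP2, a desmosome protein, rose by 4.63 ± 0.37 beside CLDN11, which made 2 of 31 genes.

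**Figure D5:**
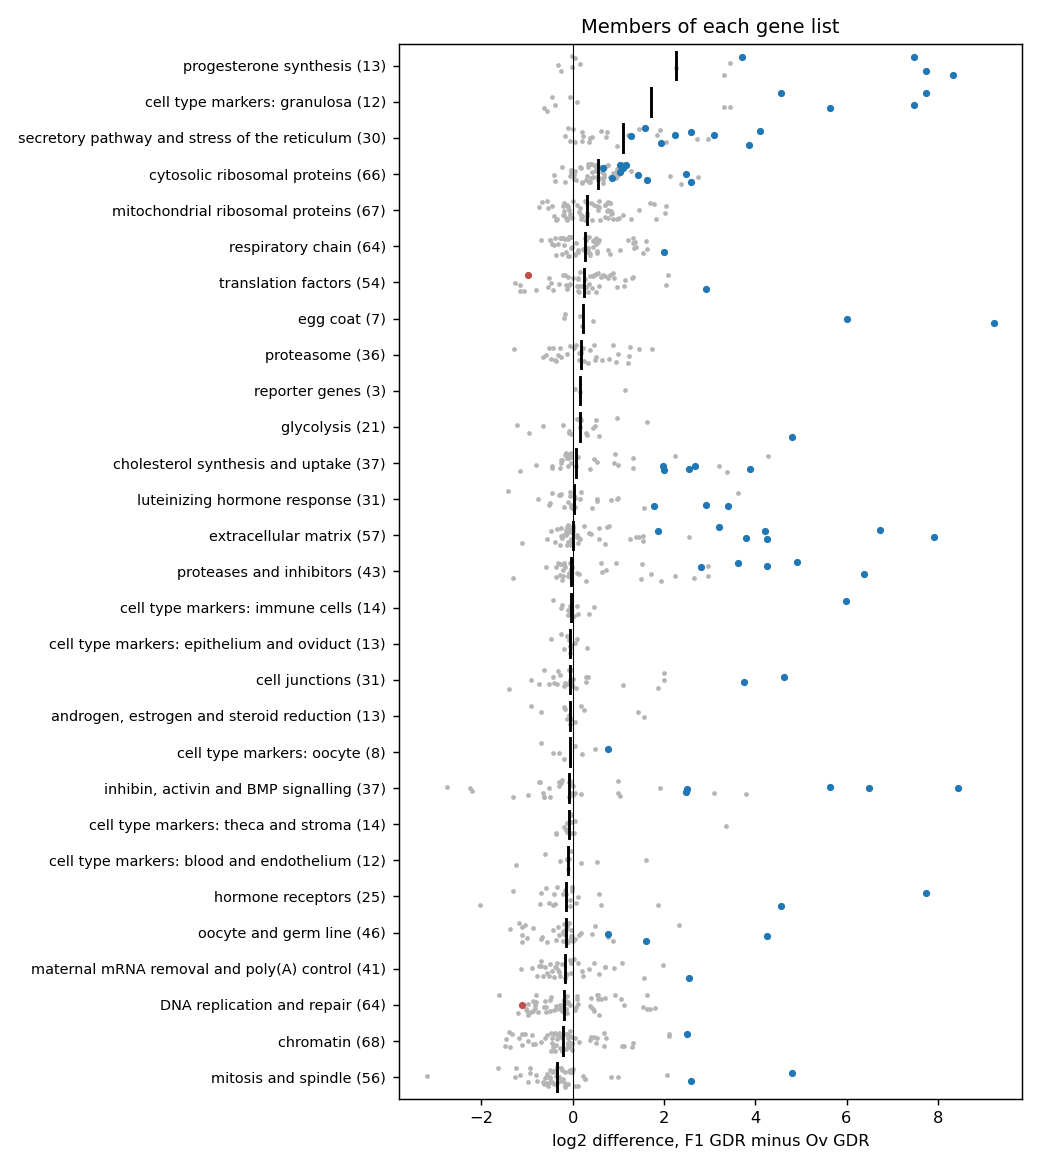
Log2 difference, F1 GDR minus Ov GDR (x axis), of each measured member of the gene lists (rows, number of genes in brackets), with called rises in blue, called falls in red and the median as a bar. Progesterone synthesis, the granulosa markers and the secretory pathway have the highest medians, at 2.26, 1.71 and 1.10, whereas most lists centre near 0 with a few members far to the right.

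Uptake and storage of cholesterol, the substrate of progesterone, involved several called genes. NPC2, which moves cholesterol out of lysosomes, read 8.83 and 10.16 in Ov GDR and 13.44 and 13.30 in F1 GDR, a rise of 3.88 ± 0.44 (adjusted p = 0.0353). VLDLR, the receptor by which hen oocytes take up yolk lipoprotein, rose by 2.67 ± 0.12, from 8.25 and 8.12 to 10.95 and 10.77 (adjusted p = 0.00723), with 11.21 on both F1 GCs arrays. SOAT1, which esterifies cholesterol, rose by 2.55 and NCEH1, which frees stored cholesterol, by 1.97. Other probe sets of SOAT1 differed by -0.09 and -0.23 and were not called. SQLE, of sterol synthesis, rose from 6.43 and 6.67 to 8.43 and 8.65. A second probe set of SQLE differed by 2.41 and was not called. HMGCS1, at the start of sterol synthesis, was apart at 5.52 and 3.84 against 8.96 and 8.93 and was not called. In all 5 of 37 genes were higher and 0 lower, with a median of 0.07, and 9 had the gap of at least 1. In glycolysis 1 of 21 genes was called, PFKL, the liver form of phosphofructokinase, which rose by 4.80 ± 0.32 (adjusted p = 0.013).

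Genes of the secretory pathway differed mostly in one direction. Of 30 genes for protein entry, folding and stress in the endoplasmic reticulum, 8 were higher and 0 lower, 27 had a positive difference and the median was 1.10. PDIA4 and P4HB, which form disulphide bonds, rose by 4.11 ± 0.18 and 3.86 ± 0.36 (adjusted p = 0.00666 and 0.0235). PDIA4 read 5.51 and 5.59 in Ov GDR against 9.67 and 9.65 in F1 GDR. A second probe set of PDIA4 differed by 3.69 and was not called. Another probe set of P4HB differed by 1.07, overlapped between the groups and was not called. The chaperones HSP90B1 and HYOU1 rose by 3.09 and 2.59, and SEL1L, SSR1, CANX and ATF4 by 2.23, 1.94, 1.58 and 1.27. A second probe set of HYOU1 differed by 1.96 and was not called. HSPA5, the main chaperone of the reticulum, read 11.01 and 10.44 against 11.08 and 10.28 and was not called.

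Genes that all cells use shifted by smaller amounts. Of 66 cytosolic ribosomal proteins 10 were higher and 0 lower, 58 had a positive difference and the median was 0.55. It became -0.12 when arrays were set to equal means of ribosomal proteins. That scaling takes the mean difference of these same genes away by construction, so it cannot show whether they differed. RPS4Y1 and RPS3 rose by 2.60 and 2.49, and RPL3 and RPS6 by 1.63 and 1.43. RPS6 read 10.25 on both Ov GDR arrays and 11.67 on both F1 GDR arrays. Without the first Ov GDR array 26 ribosomal proteins were higher and 1 lower, and without the second 37 and 1, whereas 0 were called without either of the F1 GDR arrays. Of the reporter genes ACTB differed by 0.05, GAPDH by 0.17 and EEF1A1 by 1.14, none of which was called. ACTB and GAPDH changed sign with equal means of these 3 genes, a scaling that lowers every difference by 0.46, and with equal ribosomal protein means, which lower it by 0.67.

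COX6C, a subunit of cytochrome oxidase, rose from 9.05 and 9.62 to 11.23 and 11.44 (adjusted p = 0.0314) as the one called of 64 respiratory chain genes, whose median was 0.28. Of 67 mitochondrial ribosomal proteins and 36 proteasome genes 0 were called, with medians of 0.31 and 0.19. Among 54 translation factors there was 1 in each direction. EIF4E2, which binds the mRNA cap, rose by 2.92 ± 0.33 (adjusted p = 0.0359), and EIF3I, a subunit of an initiation factor, fell by 0.99 ± 0.12 from 11.63 and 11.40 to 10.45 and 10.61 (adjusted p = 0.0383). EIF3I was the brightest of the named genes that were lower.

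Lists of the cell cycle and of chromatin had medians below 0. Their calls stand beside 3.05% of all genes higher and 0.2% lower. Of 56 genes of mitosis and spindle 2 were higher and 0 lower, with a median of -0.35. CENPO, of the kinetochore, rose by 4.81 ± 0.58 (adjusted p = 0.0399), and CDC23, of the anaphase-promoting complex, by 2.59 ± 0.28 (adjusted p = 0.0322). In F1 GCs CENPO read 11.25 and 11.57, above its 10.95 and 10.38 in F1 GDR. CDC23 read 7.14 and 6.99 there, below its 7.87 and 7.96 in F1 GDR. CDK1 and CCNA2, which drive entry into mitosis, read 9.12 and 10.67 against 10.09 and 10.26 for CDK1, and 7.88 and 8.85 against 8.35 and 8.82 for CCNA2. ASPM and ECT2 showed how far the Ov GDR arrays could lie apart, at 3.91 and 8.01 for ASPM and 3.08 and 8.29 for ECT2. Without the second Ov GDR array the median of the list was 0.04, and without the first it was -0.64.

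Of 64 genes of DNA replication and repair 0 were higher and FANCI, of the Fanconi anaemia repair pathway, was lower, by at least 1.87-fold (adjusted p = 0.0208). The median of that list was -0.18. Of 68 chromatin genes TET2, which oxidises methylated cytosine, rose by 2.50 ± 0.31 (adjusted p = 0.0428), and the median was -0.20. TET2 read 9.30 and 9.35 in F1 GCs, above its 6.93 and 7.30 in F1 GDR. Other probe sets of TET2 differed by between -0.27 and 1.09 and were not called. Of 41 genes of maternal mRNA removal and poly(A) control ZFP36L2, which speeds decay of mRNAs with AU-rich elements, rose by 2.56 ± 0.25 (adjusted p = 0.0263), and the median was -0.17. ZFP36L2 read 9.56 and 9.92 in F1 GCs, above its 8.86 and 8.95 in F1 GDR.

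Genes that were lower in F1 GDR than after ovulation fell by less than the leading rises. DIAPH3, a formin that builds actin filaments, fell by 3.21 ± 0.40, from 6.56 and 6.50 in Ov GDR to 3.87 and 2.76 in F1 GDR (adjusted p = 0.0435). FAM134B, a receptor for turnover of the endoplasmic reticulum, read 5.91 and 5.33 in Ov GDR and was at background in F1 GDR, at least 6.81-fold lower (adjusted p = 0.0187). TP63, a relative of p53 that guards the oocyte genome in mammals, fell by 2.76 ± 0.28, from 6.20 and 5.84 to 3.57 and 2.95 (adjusted p = 0.0287). For each of these the F1 GCs arrays were at 3.27 or less, so that Ov GDR was the highest of the 3 groups.

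MAP3K13, a kinase of stress signalling, fell by 2.44, DPYSL2, which acts on microtubules, by 2.38 and MBP by 2.34 (adjusted p = 0.0366, 0.0399 and 0.0208). A brighter probe set of MAP3K13 differed by 1.22 in the opposite direction and was not called, while a brighter one of MBP differed by -1.59. REPS1, of endocytosis, was one of the few lower genes with a high level, at 9.83 and 9.45 against 7.71 and 7.41. POLR3A, the largest subunit of RNA polymerase III, was another, at 10.83 and 10.63 in Ov GDR, 9.08 and 9.19 in F1 GDR, and 7.16 and 6.93 in F1 GCs. It fell by 1.59 ± 0.19 (adjusted p = 0.0404), and its brightest probe set differed by -1.50 without being called. TRAK2, which links mitochondria to motors, fell by 1.93 ± 0.12 (adjusted p = 0.0118). A brighter probe set of TRAK2 overlapped between the groups, at 5.27 and 4.06 in Ov GDR and 4.19 and 3.73 in F1 GDR. It differed by -0.70 and another by -0.69, and neither was called.

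FGF8, a growth factor of the early embryo, was lower in F1 GDR by 1.65 ± 0.16, at 3.44 and 3.33 against 4.89 and 5.18 in Ov GDR (adjusted p = 0.0266). DEPDC1B and the zinc finger genes ZNF451 and ZNF143 had falls or bounds of similar size, by 1.67 and 1.73 for the first pair and at least 3.11-fold for ZNF143. CHD1, a chromatin remodeller, fell by 1.59 and GPT2, an aminotransferase, by 1.48. TNRC18 and RPAP2 fell by 1.37 and 0.75, and PDGFC and KDM4C were at background in F1 GDR, at least 1.56-fold and 1.54-fold lower. Across these genes the F1 GDR arrays ended between 2.60 and 4.10, so most of the falls led to or near background. Brighter probe sets of TNRC18, CHD1, ZNF451, ZNF143 and RPAP2 were not called, with differences of -0.67, -0.43, -0.76, -0.58 and -1.40. A brighter probe set of KDM4C, also not called, differed by 0.92 in the opposite direction. FAM163B, DNAAF9, BEND7 and ADGB were the other named genes that were lower, by 2.67, 2.11, 2.09 and 1.78 on the log2 scale. Brighter probe sets of DNAAF9 and BEND7 were not called, with differences of -0.39 and, in the opposite direction, 0.89.

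Probe sets of a gene often differed in their call. Of 7334 genes with several probe sets, 339 had at least 1 called, 33 had 2 or more called higher and 11 had all of them higher. In 255 genes 1 probe set was higher and the others were not called. MAP1LC3B, of autophagy, was the one gene called in both directions, with a rise of 1.41 on a probe set at 9.91 and 10.19 in F1 GDR and a fall of 0.14 on a probe set at background on every array.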

How the data were processed

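RNA of 6 pools of hen tissue (Ov GDR, F1 GDR and F1 GCs, 2 arrays each) had been hybridized to Affymetrix chicken arrays. The deposited log2 values were made by the authors with gcrma, which corrects background by probe sequence, quantile-normalizes all arrays together and summarises the probes of each set. Its version is not given in the sources used here. No value was normalized again. The intensity of single probes was not used, so precision is limited by the number of arrays. Quantile normalization gives the arrays nearly the same distribution, so a shift of most transcripts between groups would not appear as such.

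After 96 control probe sets had been left out, 38439 were fitted with limma 3.58.1 in R 4.3.3 over all 6 arrays, with a trend of the variance on the mean (3 residual degrees of freedom, 1.66 from the prior). The contrast F1 GDR minus Ov GDR was called at a Benjamini-Hochberg adjusted p under 0.05 over all probe sets, two-sided. With Bonferroni adjustment of the limma p-values 8 were higher (0.0208%) and 0 lower, and at an unadjusted p under 0.05 the counts were 2896 and 4303. The methods also use Bonferroni adjustment, but on a test that shares variances within groups of probe sets. A variance mixture rebuilt from them gave 758 higher and 139 lower with that adjustment. Those are more than the study reports, so the rebuild does not reproduce its test. The code was tested on simulated data in which every group had the same spread. Such data cannot show how calls behave where the spread differs between groups, as it did here. A group was at background where both arrays were at or under the highest of 23 foreign control probe sets, and a fold against it is a bound.

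Symbols came from the platform annotation, with 27168 probe sets carrying 1 symbol, 177 several and 11094 none. Of the first, 26853 matched RefSeq genes and 0 symbols changed. In lists the brightest probe set stood for a gene. Named genes were, per direction, the 25 largest called differences with 1 symbol and arrays apart, up to 4 called members of each list per direction, genes the study followed and the reporter genes. The members, the lists and the rule were chosen with earlier results of these data known.

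The suffix A could have paired the arrays of different groups. The correlations of A minus the other array between groups were -0.15, 0.17 and -0.14, so the suffix was not taken as a pairing. The alternatives were moderation without a trend, only the 4 arrays compared, array weights per group, the suffix as a block and a filter on dim probe sets. Further ones were scaling to reporter genes or ribosomal proteins and an unpaired t-test with each probe set's own variance. A variance mixture of at most 8 classes was rebuilt from the methods, which share variances within groups of probe sets. The others were a minimum difference, Bonferroni adjustment, another probe set per gene and each array left out.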

Additional observations from a re-analysis of the deposited data

How the results depend on the processing

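Directions of the named genes held more often than the calls, although many of the settings could not change a direction. The 625 higher and 90 lower probe sets became 0 and 0 with only the 4 arrays compared. They were also 0 and 0 with an unpaired t-test that used each probe set's own variance. The study's own test instead shares variances within groups of probe sets, which the variance mixture below rebuilds. Counts were 141 and 9 with array weights per group, 28 and 0 with the suffix as a replicate block, and 8 and 0 with Bonferroni adjustment. The suffix crossed for F1 GDR as a block, chosen after the data were seen, gave 39 and 0. Counts were 1292 and 164 when dim probe sets, averaging under a log2 of 4, were left out, and 833 and 184 without a trend. The variance mixture gave 1585 and 558, or 758 and 139 with Bonferroni adjustment. A minimum difference of 1 left 604 and 26. Equal reporter gene means gave 792 and 930, with 46.0% of calls higher against 87.4%, and equal ribosomal protein means 1239 and 27103, with 4.37% higher. These scalings lower every difference by 0.46 and 0.67, also those of probe sets at background, and so move the median of all probe sets to -0.51 and -0.72. With 1 array left out the higher count ran from 1 to 2152 and the lower from 0 to 4390. The causes were not tested, apart from the fewer arrays or genes, or the constant shift, that a setting implies by itself. Of the 89 called named probe sets, 43 were called with array weights, 18 with the block and 85 without a trend. None of these 89 reversed under any setting run, but few settings could have reversed them. Their groups did not overlap, so leaving out 1 array could not change the sign. Of the other settings, only the scalings to reporter genes or ribosomal proteins altered the difference itself. Among those not called, equal reporter gene means turned ACTB to -0.40, BMP15 to -0.40, GAPDH to -0.29, MARK3 to -0.33 and ZP2 to -0.24. Equal ribosomal protein means turned ACTB to -0.62, BMP15 to -0.61, DAZL to -0.17, GAPDH to -0.50, MARK3 to -0.55 and ZP2 to -0.45. With 1 array left out, ACTB ran from -0.28 to 0.38, BMP15 from -0.0022 to 0.12, DAZL from -0.17 to 1.17, GAPDH from -0.17 to 0.51, MARK3 from -0.23 to 0.47, MOS from -1.09 to 0.25, TCF20 from -0.78 to 0.21 and ZP2 from -0.037 to 0.47. Probe sets at background limit what can be seen of low transcripts in Ov GDR, where 36.6% and 44.0% were above it.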

Other observations

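Beyond the called genes, 224 probe sets had both F1 GDR arrays below both Ov GDR arrays by a log2 of 1 or more without passing the test, and 947 had the opposite gap. The following genes were singled out from the first set after their values were seen. CBFA2T3, a transcriptional corepressor, read 5.85 and 7.28 in Ov GDR and 3.47 and 2.56 in F1 GDR (adjusted p = 0.0732). ENAH, which extends actin filaments, read 8.61 and 8.16 against 5.95 and 5.61 (adjusted p = 0.0591). REST, a repressor of neuronal genes, read 6.30 and 4.34 in F1 GDR, with a difference of -3.13 (adjusted p = 0.132). Their F1 GCs arrays were at 5.90 or less. Other probe sets of ENAH and REST differed by -0.28 and -0.11. The F1 GDR arrays differed from each other by more than the Ov GDR arrays did for REST, and the groups did not overlap in any of these 3 probe sets.

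The F1 GDR array titled A read HBA1 at 5.76 and HBAD at 3.67, whereas the other 5 arrays were at 2.55 or less for both genes. No test was made of this single array.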
